A study of Mus musculus with 10 samples.

Results

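The genes described are 10 that cut proteins into peptides and load them onto major histocompatibility complex (MHC) class I molecules: Psmb8, Psmb9, Psmb10, Psme1, Psme2, Tap1, Tap2, Tapbp, B2m and H2-K1. They were chosen by symbol from the 18994 genes of the table, and all 10 were found. The choice was made with the difference between the treated and control mice known, so their values in that comparison are a description and carry no test. They were measured by mRNA sequencing in skin of the right cheek. The mice were C57BL/6, 6 to 8 weeks old, and shaved there 3 days earlier. In the MMP9 group (5 mice) the skin received 5 µL holding 1 µg of matrix metalloproteinase 9, a secreted gelatinase, by intradermal injection. The vehicle group (5 mice) received the same volume without it, and tissue was taken 4 hours after injection in both. Each library is 1 numbered mouse, and the labels name no genetic alteration in either group. What the vehicle was made of, where the protein came from and whether the mice were male or female were not stated in the sources used here.

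Most peptides shown by MHC class I molecules are made by the proteasome, a barrel-shaped protease. Interferons, and interferon gamma above all, induce alternative catalytic subunits (Psmb8, Psmb9 and Psmb10) that replace the constitutive Psmb5, Psmb6 and Psmb7 to form the immunoproteasome, and they also induce the PA28 cap encoded by Psme1 and Psme2. The peptides are pumped into the endoplasmic reticulum by the transporter made of Tap1 and Tap2. There tapasin, encoded by Tapbp, bridges the transporter to the class I heavy chain, of which H2-K1 is one, paired with beta-2 microglobulin, encoded by B2m. Keratinocytes, fibroblasts, endothelial cells and leukocytes of skin all carry class I molecules.

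Psmb9, Tap1, Psmb8 and Tap2 follow each other in the MHC region of chromosome 17 with 0 other protein-coding genes between neighbours, and Psme1 and Psme2 are likewise neighbours on chromosome 14, in the RefSeq annotation. Tap1 and Psmb9 are read in opposite directions from starts with 225 bases between them, so that their promoter windows (250 bases before to 50 after a start) share 275 bases. Because these genes are best known as interferon targets, 3 promoter stretches are shown, ending at the last base before the annotated start. The sequences are RefSeq's for the GRCm38.p6 build, 5′ to 3′ on the strand of the gene, at chr2:122147537-122147686 (B2m, plus strand), chr17:34000348-34000497 (H2-K1, minus strand) and chr17:34187331-34187555 (Tap1, plus strand, the whole stretch between the Psmb9 and Tap1 starts). Capitals mark matches, on either strand, to the motifs reported here: GAANNGAAA (a core bound by interferon regulatory factors), GAAA followed by any 2 bases and GAAA (the core of the interferon-stimulated response element, ISRE), TGACG (the core of the X2 box of class I promoters) and the kappaB consensus of NF-kappaB.
B2m: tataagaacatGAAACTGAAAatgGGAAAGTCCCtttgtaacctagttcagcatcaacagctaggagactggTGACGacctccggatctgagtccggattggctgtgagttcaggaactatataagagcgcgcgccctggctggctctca
H2-K1: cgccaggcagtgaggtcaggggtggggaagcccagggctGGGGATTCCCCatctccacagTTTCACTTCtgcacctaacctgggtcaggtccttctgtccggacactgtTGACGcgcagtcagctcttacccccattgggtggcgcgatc
Tap1: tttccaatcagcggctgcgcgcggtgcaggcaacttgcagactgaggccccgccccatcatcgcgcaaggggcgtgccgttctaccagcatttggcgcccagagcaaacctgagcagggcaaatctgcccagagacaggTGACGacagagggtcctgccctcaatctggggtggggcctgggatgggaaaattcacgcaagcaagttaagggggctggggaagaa

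Of the members, 9 had a promoter window in the RefSeq table. TGACG stood in 5 of these 9 windows (Psmb9, Psme2, Tap1, B2m and H2-K1, the Psmb9 and Tap1 match being the same bases), against 21.0% of all 27025 windows of the same length. GAANNGAAA was found in 2 (Psme1 and H2-K1; 7.56% of all windows), the ISRE core in 2 (Psme1 and B2m; 3.49%) and the kappaB consensus in 2 (B2m and H2-K1; 4.35%). In Psme1 the matches of these 2 interferon motifs overlap each other and lie after the start, at bases 10 to 24. These matches describe the letters only.

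The libraries held between 17121541 and 19443099 estimated counts. MMP9 replicate 4 stood apart from the others. Ribosomal protein genes took 12.8% of its counts, against 6.53% to 7.39% in the other 9 libraries. Across 13974 genes, its log2 difference from the vehicle mean fell with transcript length (Spearman rho -0.67), while rho lay between -0.07 and 0.30 in the others, the 0.30 belonging to MMP9 replicate 1. This is a relation across genes, which are not independent replicates. The members follow it. Relative to the mean of the other 4 MMP9 libraries, Psme2, with an effective transcript length of 841 bases, was 0.77 higher in replicate 4 on the log2 scale of CPM (each gene's share of the library's counts, scaled by TMM factors). B2m (809 bases) was 0.55 higher. Tapbp (2699 bases) had -0.56 and Tap2 (2441 bases) had -0.55. MMP9 replicate 4 had a TMM factor of 0.843, against 0.993 to 1.05 in the other 9 libraries, and its CPM values depend on that scaling. On the scale of TPM, which adjusts for transcript length, it had the lowest Psme1, Psmb10 and H2-K1 values of its group. The main values are therefore given also without this library, and what sets it apart was not tested.

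**Figure D1:**
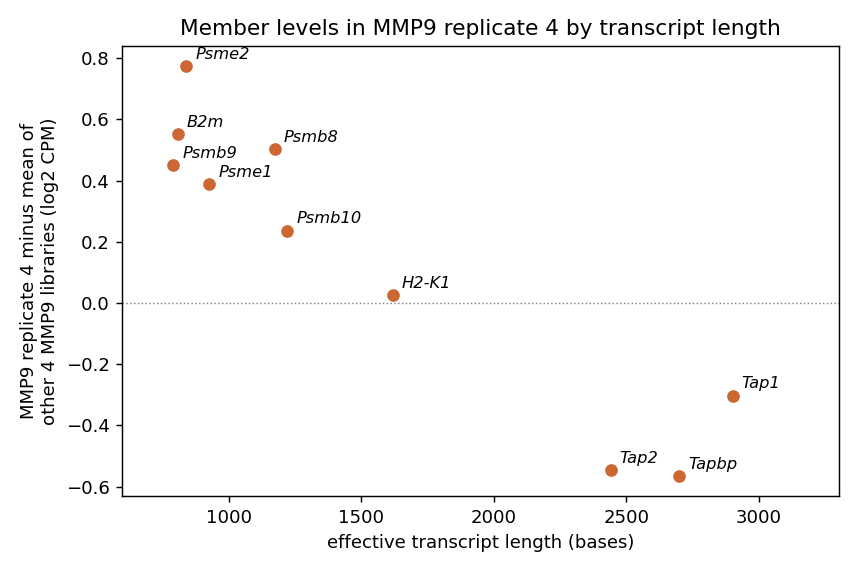
Difference of MMP9 replicate 4 from the mean of the other 4 MMP9 libraries (log2 CPM, vertical axis) for each of the 10 members, against effective transcript length in bases as derived from the deposited counts and FPKM (horizontal axis). The 6 shortest transcripts lie above 0, from 0.24 for Psmb10 to 0.77 for Psme2, H2-K1 lies at 0.02, and the 3 longest lie below 0, from -0.30 for Tap1 to -0.56 for Tapbp. Where 0 lies depends on the scaling of CPM.

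The comparison of the design asks what MMP9 changes in cheek skin after 4 hours. All 10 members had positive log2 fold changes of MMP9 over vehicle, with a median of 0.22 and a range from 0.06 for Psme1 to 0.46 for Psmb10, where 53.7% of the 15250 tested genes were positive. The inducible catalytic subunits had the largest values and Psme1 and H2-K1 the smallest. The quasi-likelihood test of edgeR, with Benjamini-Hochberg adjustment over the 15250 genes, called 0 members and 0% of all genes (DESeq2 called 1 gene, not a member, and 487 genes had an unadjusted p under 0.05 in edgeR). Without MMP9 replicate 4, the median was 0.26 and 9 of 10 members stayed above 0, against 47.6% of all genes, and the exception was Psme1 at -0.03. With log2(TPM + 1) in place of counts, 9 of 10 were positive, against 36.7% of all genes, with Psme1 at -0.004. All 10 members passed the filter on low counts.

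Psmb8 encodes the inducible chymotrypsin-like subunit. Its CPM values were 95.7, 99.5, 94.3, 76.5 and 103 in vehicle replicates 1 to 5 and 144, 108, 103, 167 and 120 in the MMP9 replicates. Every MMP9 library lay above every vehicle library, though the lowest MMP9 value, 102.7, was next to the highest vehicle value, 102.5. The means were 93.7 ± 10.1 and 128 ± 26.8 CPM (SD, n = 5), which gave a log2 fold change of 0.45 (SE 0.14), and of 0.34 without MMP9 replicate 4.

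Psmb10 encodes the inducible trypsin-like subunit. It had 49.8, 52.3, 53.7, 45.6 and 56.8 CPM in the vehicle mice and 79.5, 59.5, 62.8, 80.2 and 72.3 CPM with MMP9. The groups did not overlap here either, and the highest values were those of MMP9 replicates 4 and 1. Its log2 fold change was 0.46 (SE 0.10), and 0.40 without MMP9 replicate 4. The variation of Psmb10 between mice of a group was low for a tested gene, with a biological coefficient of variation of 14.3%, at the 20.5th percentile of all tested genes.

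Psmb9 encodes the remaining inducible subunit. It had 31.2, 41.6, 32.8, 28.4 and 39.5 CPM in the vehicle mice and 50.3, 37.6, 31.5, 56.2 and 47.9 CPM with MMP9. The groups overlapped, with 3 of 5 MMP9 libraries above all vehicle libraries and replicate 3 below the vehicle mean. On the log2 scale the difference was 0.36 (SE 0.16), and 0.26 without MMP9 replicate 4.

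Psmb8 and Psmb10 were thus the 2 members whose groups did not overlap on the CPM scale, upward, as did 0.426% of all tested genes, and the same 2 had no overlap without MMP9 replicate 4 (0.938% of all genes). On the scale of the deposited TPM (transcript abundance scaled for length), Psmb8 alone had none (0.138% of all genes), because Psmb10 had 72.1 TPM in MMP9 replicate 4, inside the vehicle range of 60.6 to 78.9 TPM. Without that library Psmb8, Psmb10 and Tap2 had none on the TPM scale (1.87% of all genes). Since the members were chosen from this contrast, nothing is read from these shares.

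**Figure D2:**
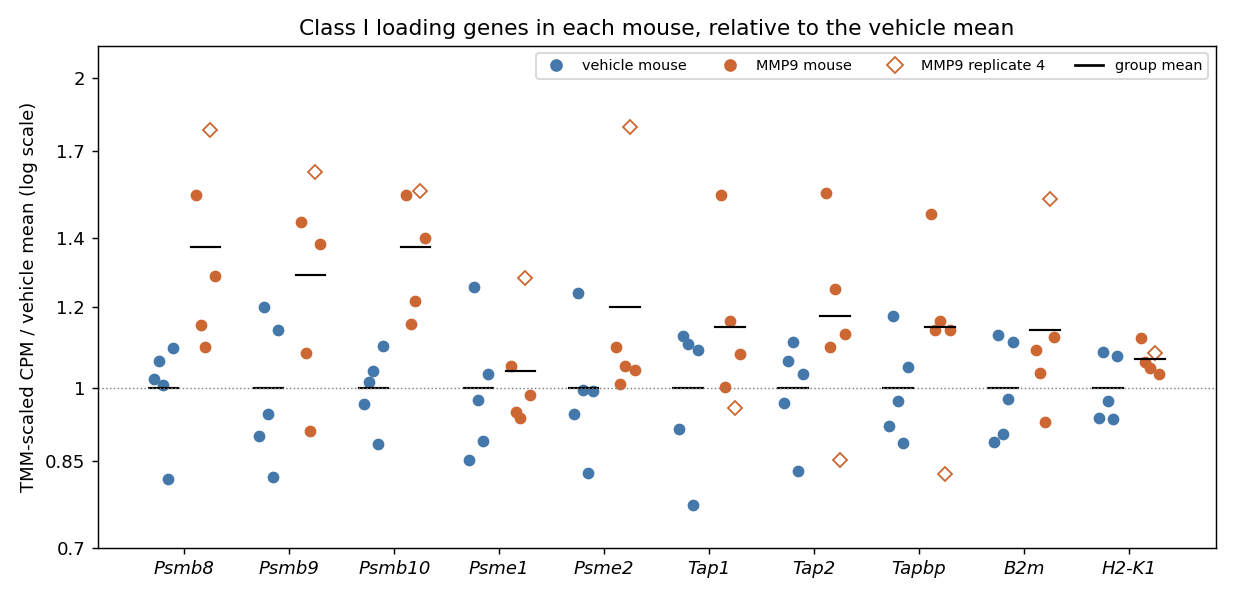
TMM-scaled CPM of each of the 10 members in each mouse, divided by the vehicle mean of that gene (log scale), with vehicle mice in blue, MMP9 mice in orange, MMP9 replicate 4 as an open diamond and the group mean as a bar. All MMP9 points of Psmb8 and Psmb10 lie above the vehicle points, and MMP9 replicate 4 is the highest MMP9 point for Psme2, at 280 CPM, and the lowest for Tap2, at 60.1 CPM.

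Psme1 and Psme2 encode the alpha and beta chains of PA28, which caps the barrel and opens it. Psme1 had 163, 240, 186, 170 and 197 CPM in the vehicle mice and 201, 181, 179, 245 and 188 CPM with MMP9, so that the groups lay over each other with a log2 fold change of 0.06 (SE 0.13). Psme2 had 147, 193, 155, 129 and 155 CPM in the vehicle mice and 171, 157, 164, 280 and 162 CPM with MMP9. The value of 280 CPM in MMP9 replicate 4 set its group mean apart on the CPM scale. The log2 fold change was 0.26 with all libraries (SE 0.17) and 0.07 without that one. In TPM that library did not stand apart, with 365 for Psme2 beside 364 in MMP9 replicate 1 and up to 381 in vehicle. On log2(TPM + 1) the log2 fold change of Psme2 was 0.17. A near-identical retrocopy, Psme2b, has a row of its own in the table, and how shared reads were counted is unknown here.

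Tap1 and Tap2 encode the chains of the peptide transporter. Tap1 had 127, 157, 154, 107 and 152 CPM in the vehicle mice and 215, 140, 162, 133 and 151 CPM with MMP9. Tap2 had 68.3, 75.1, 78.3, 58.7 and 73.0 CPM in the vehicle mice and 109, 77.4, 88.2, 60.1 and 79.9 CPM with MMP9. Both were highest in MMP9 replicate 1 and lowest of their group in MMP9 replicate 4, and the groups overlapped. Their log2 fold changes were 0.20 and 0.23 (SE 0.15 for each), and they went to 0.25 and 0.32 without MMP9 replicate 4 and to 0.07 and 0.11 without MMP9 replicate 1.

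Tapbp had 144, 184, 152, 139 and 164 CPM in the vehicle mice and 231, 178, 182, 129 and 179 CPM with MMP9. Its pattern was that of the transporter genes, with replicate 1 the highest and replicate 4 the lowest of the MMP9 libraries, the latter below all vehicle libraries. The log2 fold change was 0.20 (SE 0.15), 0.29 without MMP9 replicate 4 and 0.09 without MMP9 replicate 1.

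B2m had 2439, 3104, 2488, 2686 and 3052 CPM in the vehicle mice and 2997, 2849, 2554, 4201 and 3086 CPM with MMP9. Apart from MMP9 replicate 4, the MMP9 values lay within the vehicle range in CPM, and the log2 fold change of 0.19 (SE 0.16) went to 0.06 without it. In TPM, B2m in MMP9 replicate 4 was inside the vehicle range, at 5695 against 4898 to 6400. MMP9 replicate 1 lay above that range, at 6619 TPM. H2-K1 had 971, 1127, 1010, 970 and 1116 CPM in the vehicle mice and 1162, 1102, 1086, 1124 and 1073 CPM with MMP9. The vehicle mice spread over a wider range than the MMP9 mice and included it but for replicate 1, with a log2 fold change of 0.10 (SE 0.10), and 0.09 without MMP9 replicate 4. H2-K1 shares long stretches with other class I heavy chain genes, so its count is uncertain.

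The inducible subunits were set against the constitutive ones that they replace, per transcript length and within each library. The ratio of Psmb8 to Psmb5 in TPM was 0.63, 0.59, 0.57, 0.50 and 0.66 in vehicle and 1.15, 0.73, 0.64, 0.67 and 0.83 in MMP9. In 4 of 5 MMP9 libraries it exceeded every vehicle library, with means of 0.590 ± 0.0590 and 0.805 ± 0.206 (SD, n = 5). The ratio of Psmb10 to Psmb7 was 0.253 ± 0.0274 in vehicle and 0.323 ± 0.0845 in MMP9 and was also above all vehicle libraries in 4 of 5, the exception being replicate 4 at 0.208, below all of them. The ratio of Psmb9 to Psmb6 was 0.242 ± 0.0322 and 0.303 ± 0.0730, with 3 of 5 above. Without MMP9 replicate 4 the MMP9 means were 0.838 for Psmb8 over Psmb5, 0.351 for Psmb10 over Psmb7 and 0.318 for Psmb9 over Psmb6. In vehicle and MMP9 alike the inducible transcript was the less abundant one in every library but MMP9 replicate 1, where Psmb8 exceeded Psmb5.

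**Figure D3:**
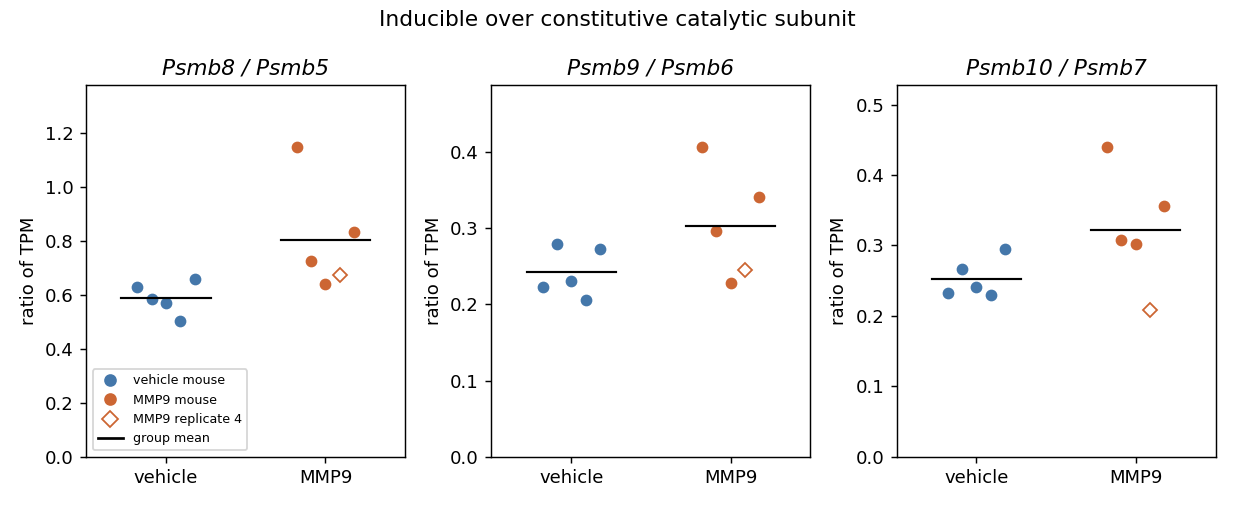
Ratio of the TPM of each inducible catalytic subunit to that of the constitutive subunit it replaces (linear axes from 0) in each mouse, with bars for group means and an open diamond for MMP9 replicate 4. The mean ratio was 0.590 in vehicle and 0.805 in MMP9 for Psmb8 over Psmb5, 0.242 and 0.303 for Psmb9 over Psmb6 and 0.253 and 0.323 for Psmb10 over Psmb7, as a description of these libraries with no test.

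On the CPM scale the constitutive genes themselves depended on MMP9 replicate 4. Psmb5 averaged 111 ± 5.60 CPM in the vehicle mice and 116 ± 33.4 CPM in the MMP9 mice, with 173 CPM in replicate 4 and 87.8 to 112 CPM in the other MMP9 libraries. Psmb6 reached 253 CPM and Psmb7 285 CPM in that library, against at most 156 and 153 CPM in the other MMP9 mice. In TPM, the scale of the ratios, Psmb5 had 231 in that library, inside the vehicle range of 210 to 240. Psmb6 had 316 TPM and Psmb7 346 TPM there, against vehicle maxima of 313 and 300 TPM. Of the 14 constitutive genes of the 20S core, 0 passed in edgeR, and 14 of 14 were positive on the log2 scale (median 0.16). Without replicate 4, 1 of 14 was positive and the median was -0.07. The 10 members had a median of 0.26 in the same fit, and the difference between the lists was not tested. Among the 18 genes of the 19S regulatory particle, which unfolds ubiquitin-tagged proteins, 0 passed and 8 were positive, with a median of -0.01, and without replicate 4 none of the 18 was positive (0 of 18, median -0.10). Other activators and assembly factors gave 0 passing of 7, with 5 positive, and 2 positive without replicate 4.

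The levels of the members, compared per length as TPM, spanned about 2 orders of magnitude. B2m was the most abundant at 5836 ± 605 TPM (SD, n = 10 libraries), above 99.96% of the genes in the table, and Tap2 the least at 51.8 TPM (SD 13.98), above 85.2%. Between them stood H2-K1 at 1079 ± 149 TPM, Psme1 at 339 TPM (range 284.9 to 429.4), Psme2 at 324 TPM (range 249.3 to 380.5) and Psmb8 at 152 ± 29.7 TPM. Tapbp had 103 ± 26.5 TPM, Tap1 84.8 ± 22.3 TPM, Psmb10 81.0 ± 16.7 TPM and Psmb9 80.5 ± 16.8 TPM. In an exact sign-flip permutation test over the 10 libraries (two-sided, log2(TPM + 0.1), Benjamini-Hochberg over the 9 neighbouring pairs), 6 pairs differed, each in the same direction in 10 of 10 libraries with an adjusted p of 0.00293, from the smallest p the test can give, 0.00195. B2m was 5.43-fold above H2-K1, and Tap1 was below Tapbp, which was 1.21-fold higher. Psme1 and Psme2 did not differ beyond their spread (mean log2 difference 0.06, SD 0.16, adjusted exact permutation p of 0.326), nor did Tap1 and Psmb10 (0.05, SD 0.25, adjusted exact permutation p of 0.637) or Psmb10 and Psmb9 (0.01, SD 0.17, adjusted exact permutation p of 0.805). The transcripts of the transporter chains were unequal, with a Tap1 to Tap2 ratio of TPM between 1.52 and 1.87 in all 10 libraries.

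**Figure D4:**
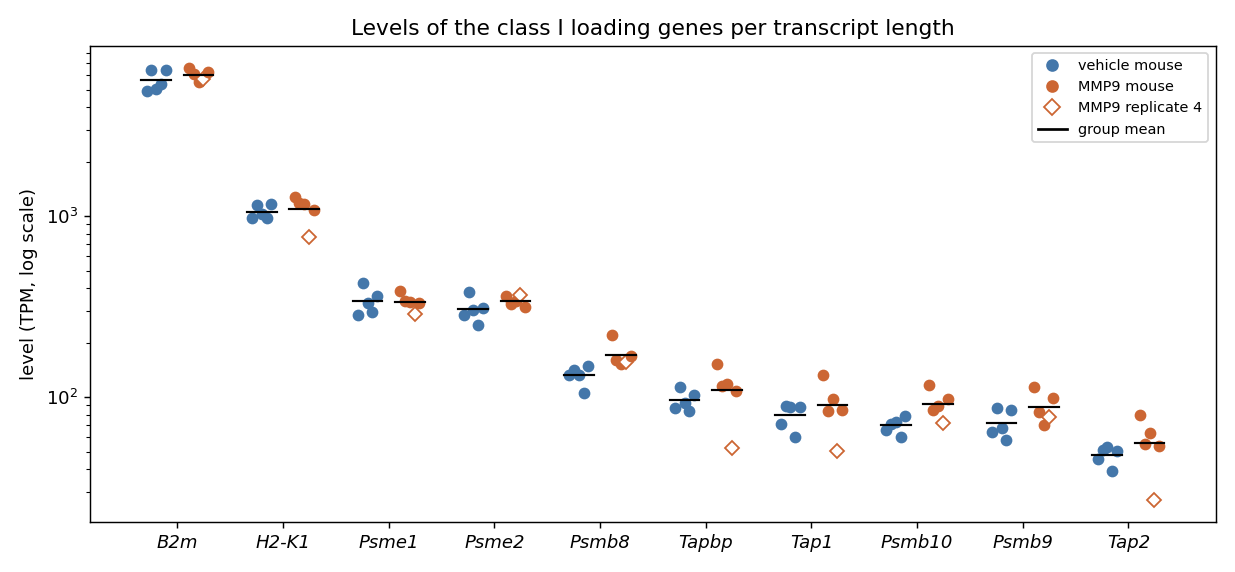
Deposited TPM (log axis) of the 10 members in each mouse, ordered by mean level, with vehicle mice in blue, MMP9 mice in orange, MMP9 replicate 4 as an open diamond and group means as bars. Levels run from 4898 to 6619 TPM for B2m down to 27.0 to 80.0 TPM for Tap2, and the lowest H2-K1, Tapbp, Tap1 and Tap2 values belong to MMP9 replicate 4.

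Whether the members varied together between mice given the same injection was tested on log2 CPM after removing each group mean, which uses none of the difference between the groups. In vehicle replicate 4 all 10 members lay below the mean of the other vehicle mice, and in vehicle replicates 2 and 5 all 10 lay above it. Over the 45 pairs and all 10 libraries the median Pearson r was 0.54 and 12 pairs passed an exact permutation test within groups (14400 arrangements, two-sided, Benjamini-Hochberg over 45 pairs), with 3 passing by Spearman's rho. The share of passing pairs among other genes was not computed, so the count is not read as particular to the members. The number of passing pairs changed when single mice were left out. It was 16 without MMP9 replicate 4, 11 without vehicle replicate 3, 9 without MMP9 replicate 1 and 7 without MMP9 replicate 3 or 5. It was 6 without MMP9 replicate 2, 5 without vehicle replicate 1, 3 without vehicle replicate 4 or 5 and 1 without vehicle replicate 2. Fewer libraries also allow fewer arrangements, and what moved the number was not tested. The median r lay between 0.45 and 0.72 over these fits, and was 0.56 without vehicle replicate 2.

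The closest pair was Tap1 and Tap2, with r of 0.92 (exact permutation p of 0.000208, adjusted 0.00938), rho of 0.93 (adjusted exact permutation p of 0.0156) and r of 0.78 without the 2 libraries farthest from the Tap1 median. Psmb8 went with Psmb10 (r 0.91, rho 0.85, adjusted exact permutation p of 0.0234 for r and 0.0563 for rho, r of 0.91 without the 2 farthest). Psmb8 also went with Psmb9 (r 0.89, rho 0.90, adjusted exact permutation p of 0.0234 and 0.0219, r of 0.83 without the 2 farthest). Psme1 went with Psme2 (r 0.89, rho 0.72, adjusted exact permutation p of 0.0234 and 0.0563), and r was 0.64 without the 2 farthest libraries. Psmb9 and Psme1, on different chromosomes, made the remaining pair that passed by rho. They had r of 0.81 and rho of 0.89 (adjusted exact permutation p of 0.0234 and 0.0219), and r of 0.83 without the 2 farthest. Tap1 and Psmb9, which share the stretch between their starts shown above, had r of 0.33 and rho of 0.33 (adjusted exact permutation p of 0.562 and 0.513). Their r was 0.64 without MMP9 replicate 4, at an adjusted exact permutation p of 0.125.

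With MMP9 replicate 4 included, the 3 longest members stood apart from the other 7. Between the 3 longest transcripts (Tap1, Tap2 and Tapbp) and the other 7, the median r of 21 pairs was 0.02, with 10 negative, and it was 0.71 with 0 negative without that library. This grouping was made after the values were seen and was not tested. The 3 longest are also the transporter and tapasin genes, so length and function cannot be told apart here. Within the 3 longest the median r was 0.91, and 0.88 without replicate 4, and within the other 7 it was 0.75 and 0.72. For the 14 constitutive 20S genes the median r over 91 pairs was 0.96 with replicate 4 and 0.53 without it.

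**Figure D5:**
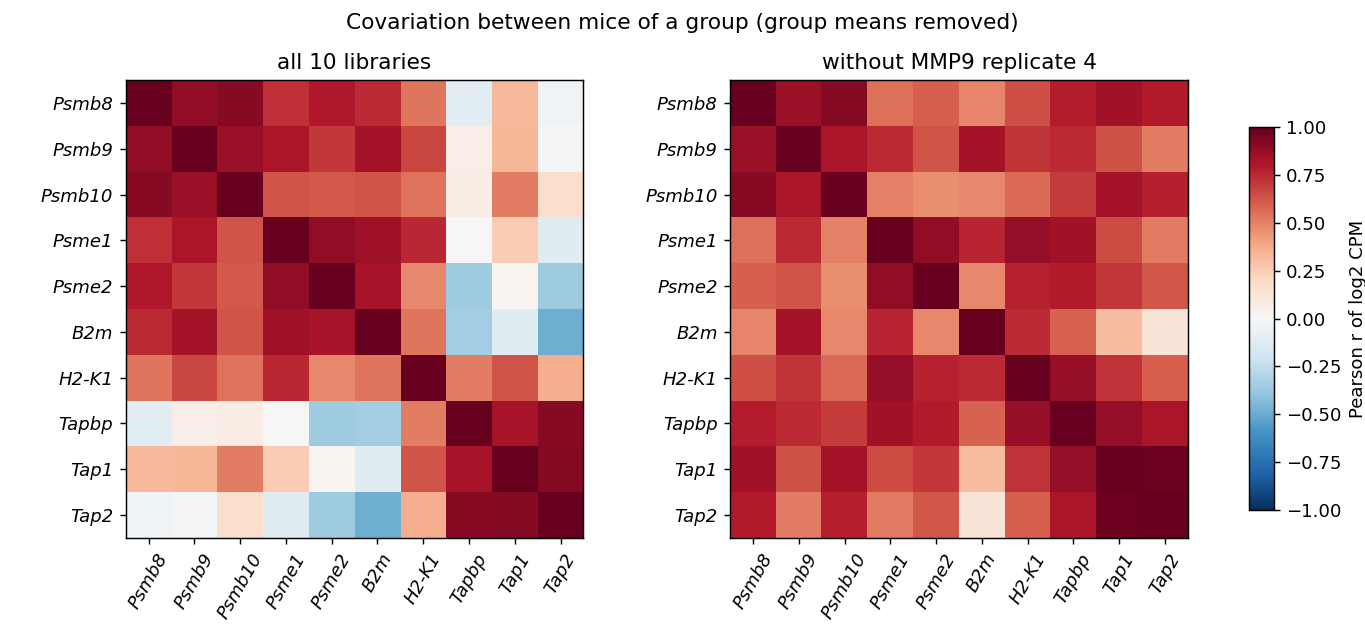
Pearson r of log2 CPM between each pair of the 10 members after group means were removed, over all 10 libraries (left) and over the 9 libraries without MMP9 replicate 4 (right), on a colour scale from -1 to 1. On the left the pairs between Tapbp, Tap1 or Tap2 and the other 7 genes have a median of 0.02, and on the right, 0.71.

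The genes outside the members whose levels were most like theirs over the 10 libraries, by the mean of r with the 10 members after removal of group means, were Il1f8, Chga, Slpi, Il1f6, Krt16, Apol9a, Apol7a, Stfa3, Shcbp1 and S100a9, with mean r from 0.64 to 0.67. The median over the other 15240 tested genes was -0.01. Among the 10 are the genes of interleukin 36 beta (Il1f8) and interleukin 36 alpha (Il1f6), of a keratin of activated keratinocytes (Krt16), of an alarmin (S100a9) and of a protease inhibitor (Slpi). Krt16 had 65.8, 474, 187, 28.7 and 229 CPM in the vehicle mice and 210, 42.1, 83.0, 258 and 63.6 CPM with MMP9. It was thus high in vehicle replicates 2 and 5 and in MMP9 replicates 1 and 4, and lowest in vehicle replicate 4. Of the 10 genes, 4 were also among the 10 most alike without MMP9 replicate 4, namely Il1f8, Chga, Slpi and Il1f6, with mean r from 0.80 to 0.84. These 4 had low counts over all 10 libraries, 2436, 253, 942 and 647 in that order. Psmb9, the member with the fewest, had 7242.

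By the same measure, the members, each against the other members, had a median of 0.47, and 0.71 without MMP9 replicate 4. The 5 keratinocyte markers (Krt5, Krt14, Krt1, Krt10 and Krtdap) had a median of 0.53, above that of the members, and 0.66 without that library. The 12 tested interferon-induced genes had 0.42, and 0.53 without it. The 8 other class I heavy chain genes had 0.29, and 0.59 without it. The 13 leukocyte markers had a median of -0.005, fibroblast markers -0.16, skeletal muscle markers -0.35 and hair markers -0.42. Without that library these were 0.05, -0.31, -0.60 and -0.64. All these values share the same 10 libraries and are given as a description. In bulk tissue, fewer cells of a type and less RNA per cell cannot be told apart.

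The heavy chain genes beside H2-K1 showed values like those of the members. Of 8, 0 passed in edgeR and 8 were positive with a median of 0.24, and 8 were positive without MMP9 replicate 4. H2-M3, a nonclassical chain that presents formylated peptides, averaged 9.06 ± 1.56 CPM without and 12.2 ± 1.60 CPM with MMP9 (SD, n = 5), with 5 of 5 MMP9 libraries above the vehicle mean and an edgeR adjusted p of 0.981. H2-T22 had 205 ± 22.2 and 262 ± 56.7 CPM and H2-Q4 had 164 ± 16.6 and 195 ± 28.3 CPM, each with an edgeR adjusted p of 0.981. H2-M3, H2-T22 and H2-Q4 were the genes of smallest p among the 8. H2-D1, the most abundant of the 8, had 1245 ± 173 and 1334 ± 54.8 CPM, a log2 fold change of 0.10 (SE 0.12). Counts of these related genes are uncertain where reads are shared. Other loading and trimming genes gave 0 passing of 5 and 3 positive. Tapbpl, a tapasin-related editor, had a log2 difference of 0.20 between the groups, the trimming peptidase gene Erap1 of 0.10 and the disulfide isomerase gene Pdia3 of 0.12, with standard errors of 0.10, 0.08 and 0.10. These were the genes of smallest p in the list. The others, Calr and Canx, each had -0.02, with standard errors of 0.11 and 0.09.

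Among the regulators of class I genes, 0 of 19 tested passed and 16 were positive, with a median of 0.11. Nlrc5, the transactivator of class I genes, had 74.7, 82.8, 82.2, 55.7 and 74.3 CPM in the vehicle mice and 111, 73.3, 81.1, 57.7 and 73.8 CPM with MMP9. MMP9 replicate 1 was high and the other 4 lay within the vehicle range, with a log2 fold change of 0.10 (SE 0.17; adjusted p from edgeR 0.981). Irf1, an interferon-induced activator of these promoters, had 51.4 ± 7.27 and 62.9 ± 10.8 CPM, with 3 of 5 MMP9 mice higher than any vehicle mouse. Socs1, an inhibitor of interferon signalling, had 19.6 ± 4.46 and 27.3 ± 7.08 CPM, a log2 difference of 0.48 (SE 0.20). The edgeR adjusted p was 0.981 for Irf1 and Socs1. Ifng itself had 33 counts over all 10 libraries and was below the filter.

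Of 12 tested interferon-induced genes, 0 passed in edgeR and 12 were positive, with a median of 0.54, and 12 were positive without MMP9 replicate 4 (median 0.47). Igtp, a GTPase gene induced by interferon gamma, had 83.7 ± 18.1 and 120 ± 28.0 CPM, and Gbp3, which encodes a guanylate-binding protein, had 71.6 ± 12.5 and 99.7 ± 24.7 CPM. For both, 4 of 5 MMP9 libraries lay above the vehicle mean, and the edgeR adjusted p was 0.981. For Ifit1 the log2 fold change was 0.98 (SE 0.32), at the same adjusted p in edgeR. The direction of these genes was known when the list was written, so it is not independent evidence.

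Markers of the cells that cheek skin holds were compared beside these values. The 13 leukocyte markers, all tested and none at 0 in a library, summed to between 187 and 540 CPM in vehicle and between 292 and 560 CPM in MMP9, with 314 CPM in MMP9 replicate 4. Of them, 0 passed and 11 were positive, with a median of 0.26 (11 and 0.29 without replicate 4). The T cell gene Cd3g averaged 20.7 ± 2.40 and 28.4 ± 6.93 CPM and did not overlap between the groups, as did 0.426% of all tested genes in that direction, with 40.5 CPM in replicate 4 and 23.7 to 26.9 CPM in the other MMP9 mice, and Cd207, the langerin gene, had 19.9 ± 4.87 and 29.0 ± 9.30 CPM, each with an edgeR adjusted p of 0.981. Both are among the leukocyte markers of smallest p. For Cd3e, another T cell receptor gene, the log2 fold change was 0.06 (SE 0.15), and the macrophage genes Adgre1 and Csf1r had -0.14 (SE 0.42) and -0.12 (SE 0.35). The 5 keratinocyte markers summed to between 8264 and 15623 CPM in vehicle and between 8882 and 14395 CPM in MMP9, with 0 passing, 2 positive and a median of -0.06 (1 and -0.11 without replicate 4). The 5 fibroblast markers summed to between 4728 and 8222 CPM in vehicle and between 5617 and 10204 CPM in MMP9, with 0 passing and 5 positive (4 without replicate 4). The 5 endothelial markers (473 to 579 CPM against 370 to 555 CPM) had 0 passing and 0 positive, also without replicate 4, with Plvap lower in every MMP9 mouse than in any vehicle mouse, as were 0.138% of all tested genes, and the 5 skeletal muscle markers (11395 to 22393 CPM against 11151 to 22674 CPM) had 0 passing and 2 positive (0 without replicate 4). The 5 hair markers summed to between 2.13 and 3800 CPM in vehicle and between 3.26 and 1330 CPM in MMP9, with 0 passing and 0 positive (also 0 without replicate 4), and 1 of them was at 0 in a library. The part of any cell type in the members' values was not tested.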

How the data were processed

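Per the file headers, the authors deposited, for each of 10 libraries, an estimated read count per gene (60.8% of these are fractional), an FPKM value and a TPM value, the last 2 scaled by the authors for transcript length and library size. Per the labels' protocols, oligo(dT)-selected mRNA was read as single ends of 50 bases on a DNBSeq instrument. Per the submitters' processing notes, HISAT and GRCm39 were used; for the quantifier, versions, annotation, strand setting and treatment of shared reads, nothing was given in the sources used here.

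The deposited estimated counts were rounded and fitted with edgeR 4.0.16 in R 4.3.3 (TMM factors, filterByExpr by group, quasi-likelihood F test, treatment as the only term, Benjamini-Hochberg threshold of 0.05). The filter kept 15250 of 18994 genes. Fold changes are log2 of MMP9 over vehicle, and standard errors (SE) were derived from the F statistic. Log2 CPM used a prior count of 2. Effective length was derived from the deposited counts and FPKM (genes above 1 FPKM). Permutation tests were exact, with numpy 2.4.6 in Python 3.11.15. The design named random permutations for the covariation, and all 14400 possible ones were enumerated instead. The tests were checked on simulated data. Each library is 1 mouse, and all pairs of libraries differed beyond counting noise (the smallest chi-square per gene was 18.6).

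The members and gene lists were chosen with earlier results of these data known. All members, Psmb5, Psmb6, Psmb7, Nlrc5, Irf1 and 1 regulator (not reported here, nor is a motif searched for it) were to be named, with up to 3 genes of smallest p per other list and the 10 genes most like the members; some of these, mainly of the cell type lists, are given as list values only. Of 123 list entries, 122 were in the table. Alternatives tried were other scaling (RLE, upper-quartile), the unfiltered table, DESeq2 1.42.0, limma 3.58.1 (voom, and log2 TPM with a pseudocount of 1 or 0.1), the mouse number as a block, and each library left out. Promoter windows matched by Entrez identifier for 9 members.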

Additional observations from a re-analysis of the deposited data

Results flagged for a closer look

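In groups of 5 libraries, 17 single values lay far from the other 4 of their group (a gap above 0.71 of the group's range), among 120 groups examined. Chance alone gives about 1 in 20 groups such a value. MMP9 replicate 4 gave 12 of the 17.

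Its Psme2 value was 280 CPM, against 157 to 171 CPM in the other MMP9 mice, and its Psme1 to Psme2 ratio of TPM was 0.793, against 0.993 to 1.06. No other member had such a value on the CPM scale. In TPM its Psme2 value of 365 lay beside the 364 of MMP9 replicate 1. Constitutive proteasome genes were high in MMP9 replicate 4 on the CPM scale. Psmb5 had 173 CPM, Psmb6 253 CPM, Psmb7 285 CPM, Psmb4 226 CPM, Psma2 251 CPM and Psma7 217 CPM. The assembly factor genes Psmg4 and Psmg3 had 19.4 and 15.2 CPM there. Cd3g had 40.5 CPM, against 23.7 to 26.9 CPM, and Krtdap had 4932 CPM, against 1639 to 2393 CPM. This library also had 12.8% of its counts in ribosomal protein genes, and the part of that in these values was not tested.

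Vehicle replicate 4 was low for H2-T22, at 166 CPM against 208 to 219 CPM, and for Gbp3, at 50.2 CPM against 72.6 to 81.1 CPM. Psmd11 was low in vehicle replicate 5, at 106 CPM. Pdgfra was high in MMP9 replicate 3, at 110 CPM, and Myh4 in MMP9 replicate 5, at 2522 CPM.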

How the results depend on the processing

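Of 180 log2 fold changes (10 members, 18 alternatives), 177 were positive; the others belonged to Psme1. Sizes moved more: Psme2 ran from 0.07 to 0.35, B2m from 0.06 to 0.25 and Tap1 from 0.07 to 0.25. The median over members ran from 0.16 to 0.26 when single libraries were left out. Genes passing were 0 in edgeR under every library left out (0 to 0) and 1 with DESeq2. The smallest edgeR adjusted p of any gene was 0.981 with all libraries. It was 0.0510 without MMP9 replicate 2, 0.0672 without MMP9 replicate 3 and at least 0.887 without any other library. Other genes of the lists gave 0 passing throughout (0 to 0). Of the 9 neighbouring pairs in the order of levels, 6 differed, and 6 to 7 did with libraries left out. The members whose groups did not overlap numbered 2, and 1 on the TPM scale, an alternative chosen after seeing the data. Pairs of members that passed for covariation numbered 12, 21 on log2(TPM + 1), and 1 to 16 with single libraries left out; the cause was not tested, beyond fewer samples. With the replicate block, 0 pairs passed, where 120 arrangements allow no p below 0.00833. The median r over pairs of members was 0.77 with the block and 0.54 without it. The labels number the mice in each group and do not say whether equal numbers were matched. Same-numbered libraries had correlations of deviations of -0.24, -0.05, 0.46, 0.14 and 0.20, and 2 of 5 correlated best with their own number. These correlations cannot decide whether the mice were paired. With the block, 0 genes passed in edgeR. The median log2 fold change of all genes was 0.01, 0.04 with upper-quartile scaling and -0.04 on log2(TPM + 1). With 5 mice a group, 0 of 15250 genes called does not show that levels are equal.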
